A study of Mus musculus with 6 samples.

Results

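The amino acid transporter families comprised 43 of the 19938 genes on the array that carry a single symbol. Members were all genes whose symbol begins with Slc1a, Slc3a, Slc7a, Slc36a, Slc38a or Slc43a followed by a digit, a rule that uses names and no measured value. They fell into 7 Slc1, 2 Slc3, 16 Slc7, 4 Slc36, 11 Slc38 and 3 Slc43 genes. Slc7a6os, a neighbour of Slc7a6 on the opposite strand, matched the rule by its name and is not a transporter. Slc43a3 carries purine nucleobases rather than amino acids.

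Affymetrix mouse Gene ST arrays were hybridised with RNA of the epididymal fat pad, a visceral depot of white adipose tissue abbreviated eWAT. The donors were C57BL6/J males, all fed a high-fat diet that began at 6 weeks of age and lasted 12 weeks. Early in that period a recombinant adeno-associated virus (rAAV) of the hybrid serotype Rec2 had been injected into both epididymal fat pads, with an insert for yellow fluorescent protein (YFP) in controls and for Lmo3, a cofactor of transcription with LIM domains, in the treated mice. Each of the 3 rAAV-YFP and 3 rAAV-Lmo3 arrays held RNA pooled from 2 mice. One field of the labels names LacZ rather than YFP as the control insert; the name in the titles is used. Both inserts were driven by a CMV enhancer and chicken beta-actin promoter, which is not restricted to adipocytes, and whole tissue was profiled. In such tissue, fewer cells of a type and less RNA per cell cannot be told apart.

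Amino acid transporters fall into families with distinct coupling. Slc1 proteins carry glutamate and aspartate or exchange small neutral amino acids. Slc7 light chains pair with a Slc3 glycoprotein heavy chain and exchange amino acids across the membrane, while the cationic Slc7 transporters act alone. Of the Slc36 proteins, Slc36a1 and Slc36a2 move glycine, alanine and proline together with protons. Slc38 proteins move glutamine and other neutral amino acids, mostly with sodium, and Slc43a1 and Slc43a2 let large neutral amino acids pass by facilitated diffusion. In fat, Slc7a10 (Asc-1) is known as a surface marker of white adipocytes and Slc36a2 (PAT2) as one of brown and beige adipocytes.

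Intensities on all arrays were of similar scale, with array medians between 123 and 127.5. The arrays rAAV-YFP 2 and rAAV-Lmo3 1 had mean correlations of 0.9875 and 0.9865 with the other arrays, where the remaining arrays had 0.9905 to 0.9921, and are called below the arrays that stood apart. The Lmo3 probe set read 24 to 26 on every array, near the floor of the measurement, and so gave no check of the labels. Adipocyte markers were bright, for example Adipoq (adiponectin) with 8014 to 10809, and all 8 markers of the epididymal epithelium on the array were too dim to test. With 3 pools against 3, an exact permutation test cannot give a p below 0.1.

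Among the members, Slc36a2 was 1.76-fold higher in rAAV-Lmo3 eWAT, and Slc43a3, the nucleobase carrier, was 20.1% lower. These were the only members of the 24 tested with an unadjusted p under 0.05 by limma, 1 in each direction, where 2.27% of all 11963 genes tested were higher and 2.4% were lower at that level. The same members were the only ones with groups that did not overlap, against 4.53% of all genes on the higher side and 5.95% on the lower side. Without Slc7a6os and Slc43a3, 0 of 22 tested members were lower at the unadjusted level, and 0 were lower without overlap. After Benjamini-Hochberg adjustment over all genes 0 members passed, as did 0.0% of all genes, with a smallest adjusted p of 0.669. None of the differences below is therefore called a change. Over the 24 tested members, 11 lay above 0 and 13 below, with a median log2 difference (rAAV-Lmo3 minus rAAV-YFP) of -0.03 beside 0.00076 over all genes. The size of the difference had a median of 0.0933 in the members and 0.0865 in all genes. Errors were wider in the members, with a median SE of 0.169 against 0.109.

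**Figure D1:**
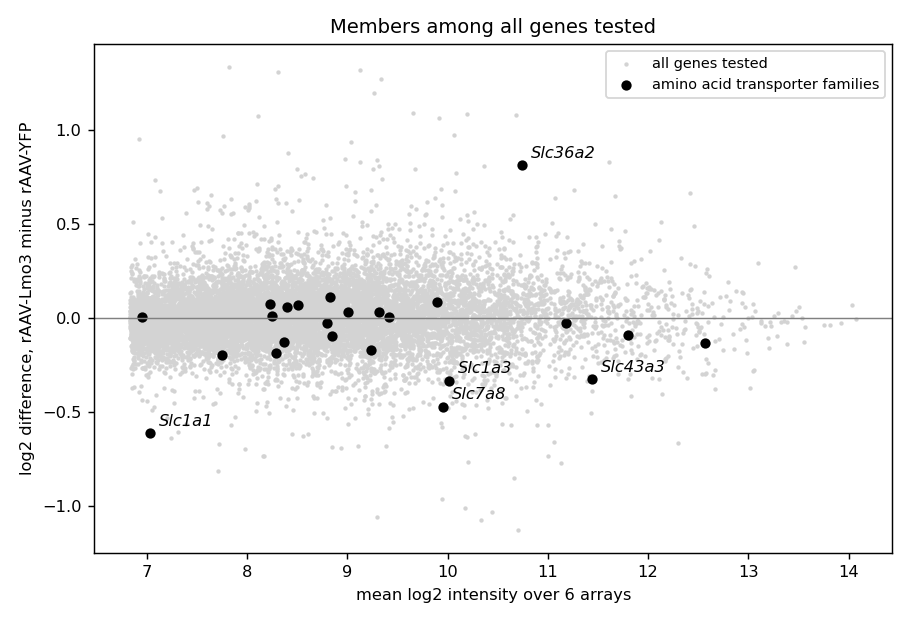
Log2 difference between the groups (vertical axis, rAAV-Lmo3 minus rAAV-YFP) against the mean log2 intensity over the 6 arrays (horizontal axis) for the 11963 genes tested (grey) and the 24 tested members (black). Slc36a2 stands at 0.81, while Slc1a1, Slc7a8, Slc1a3 and Slc43a3 are the members farthest below 0.

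Slc36a2 was the member with the largest difference. Its intensity was 1207, 1102 and 1626 in the control pools and 1746, 2621 and 2565 in the pools that received rAAV-Lmo3. Every rAAV-Lmo3 pool thus lay above every control pool, although rAAV-YFP 3 and rAAV-Lmo3 1 were close to each other. On the log2 scale the controls averaged 10.34 ± 0.29 and the treated pools 11.15 ± 0.33 (SD, n = 3). The difference was 0.81 ± 0.21 (SE) with a 95% confidence interval of 0.32 to 1.31, and an adjusted p of 0.970 by limma. Among all genes tested it ranked 21 by size on the higher side. Leaving out single arrays kept the difference between 0.70 and 1.00, and it was 0.89 without both rAAV-YFP 2 and rAAV-Lmo3 1.

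The relatives of Slc36a2 showed no such separation. Slc36a1 (PAT1), known from lysosomes and the gut, had intensities of 641, 585 and 697 in rAAV-YFP and 383, 683 and 702 in rAAV-Lmo3 eWAT. Only rAAV-Lmo3 1 lay low, and the remaining arrays of both groups mixed. The log2 difference of -0.17 ± 0.24 had an interval of -0.74 to 0.40, and it was 0.12 without rAAV-Lmo3 1. Slc36a4 (PAT4) read 524, 372 and 465 against 375, 465 and 489, a difference of -0.03 ± 0.16 with an interval of -0.41 to 0.35. Slc36a3 (PAT3) was too dim to test, with 68, 89 and 69 against 80, 77 and 62.

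Slc36a3, Slc36a2 and Slc36a1 are direct neighbours in the genome, with 0 other coding genes between them. To compare Slc36a2 with its relatives on each array, the mean log2 value of Slc36a1 and Slc36a4 was subtracted from that of Slc36a2, a measure chosen after the values had been seen. Set relative to the control mean, this gave -0.21, -0.03 and 0.24 for rAAV-YFP and 0.93, 0.95 and 0.86 for rAAV-Lmo3. The 3 rAAV-Lmo3 values lay close together and above all controls. Both relatives had their lowest treated value on rAAV-Lmo3 1 (383 and 375), which raised the measure there. The difference between the groups was 0.91 ± 0.14, with an exact two-sided permutation p of 0.1, the smallest that 3 against 3 allows. Slc36a2 alone had the same permutation p, so that of the measure is no further evidence. This SE comes from the 3 values of each group alone and is not comparable with the moderated SE of single genes.

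Slc36a2 was read beside the markers of brown and beige fat, of which 9 of 10 tested lay above 0 with a median log2 difference of 0.37, where 50.3% of all genes lay above 0. At the unadjusted level 4 of the 10 were higher, against 2.27% of all genes. The list was chosen with earlier results of these data known, so its counts only describe these arrays. The score of this list was -0.35, -0.17 and -0.18 for rAAV-YFP and 0.44, 0.05 and 0.21 for rAAV-Lmo3, highest on rAAV-Lmo3 1, the treated array on which Slc36a2 was lowest. Cox8b, a cytochrome oxidase subunit of brown fat and muscle, read 175, 189 and 245 against 1017, 351 and 343, and its difference of 1.31 was 0.79 without that array. P2rx5, a purinergic ion channel known as a surface marker of brown and beige adipocytes alongside Slc36a2, read 133, 132 and 132 in rAAV-YFP and 164, 170 and 193 in rAAV-Lmo3 eWAT. These groups did not overlap, the log2 difference was 0.41 ± 0.09, and rAAV-Lmo3 1 was the lowest of the treated pools, as for Slc36a2. The control values of P2rx5 lay little above the intensity limit of 114 for testing. Ucp3, with 225, 327 and 341 against 511, 504 and 480, was instead highest on rAAV-Lmo3 1. Chchd10 read 833, 693 and 510 against 1668, 962 and 1675, with rAAV-Lmo3 2 the lowest treated pool. Both were also higher at the unadjusted level, with differences of 0.77 ± 0.16 and 1.06 ± 0.27. The tested marker below 0 was Elovl6, at -0.16 ± 0.19. Ucp1, the defining uncoupling protein of brown fat, was too dim to test, with 84, 77 and 74 in the controls and 133, 94 and 90 in rAAV-Lmo3 eWAT, highest on rAAV-Lmo3 1. Slc7a10, the white adipocyte counterpart among the members, read 2067, 2650 and 2342 against 2257, 2363 and 2278. The groups overlapped fully, with a log2 difference of -0.03 ± 0.11 and an interval of -0.28 to 0.23. General adipocyte markers had a median difference of -0.05, with 2 of 11 above 0. The part of cell composition in the Slc36a2 difference was not tested.

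**Figure D2:**
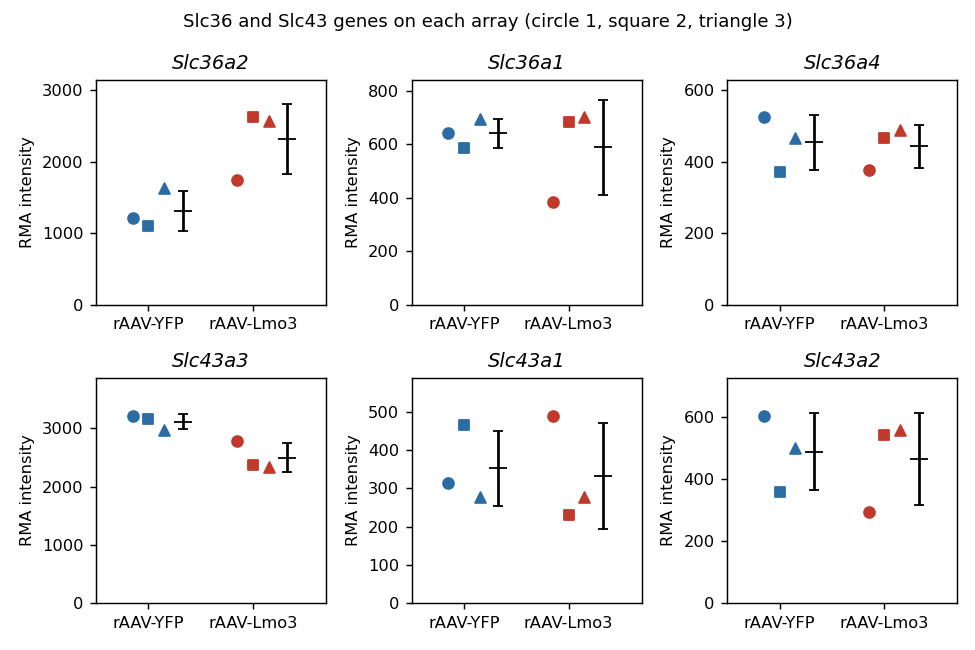
RMA intensity (vertical axis, linear scale from 0) of the tested Slc36 genes and all Slc43 genes on each array (circle, replicate 1; square, replicate 2; triangle, replicate 3; blue, rAAV-YFP; red, rAAV-Lmo3; black, group mean ± SD, n = 3). The groups are apart for Slc36a2 and Slc43a3, and overlap for Slc36a1, Slc36a4, Slc43a1 and Slc43a2.

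Of the Slc43 family, the nucleobase transporter Slc43a3 was lower in rAAV-Lmo3 eWAT. It read 3221, 3158 and 2973 in control pools and 2785, 2376 and 2329 in treated pools. All 3 treated pools lay below all controls. The log2 difference was -0.32 ± 0.10 with an interval of -0.55 to -0.09 and an unadjusted p of 0.0127 by limma. When single arrays were left out it ranged from -0.41 to -0.28, and without rAAV-Lmo3 3 the unadjusted p was 0.0511. Endothelial markers, set beside it, lay below 0 in 8 of 10 cases with a median of -0.06 and separated the groups in 0 cases. At the unadjusted level 1 of them was lower, against 2.4% of all genes. The endothelial score was -0.12, 0.23 and 0.08 for rAAV-YFP and -0.21, 0.05 and -0.03 for rAAV-Lmo3. It was lowest on rAAV-Lmo3 1, the treated array on which Slc43a3 was highest. Markers of T and NK cells lay below 0 in 3 of 3 tested cases with a median of -0.37. Another 7 on the array were too dim to test, with differences on both sides of 0. Of the 3 tested, 2 had an unadjusted p under 0.05 by limma and groups that did not overlap. Over all genes, 2.4% and 5.95% did so on the lower side. Mesothelial markers lay below 0 in 7 of 7 cases with a median of -0.37, and smooth muscle and pericyte markers in 7 of 7 with a median of -0.12, with 0 past the unadjusted level in both lists. The mesothelial score was -0.305, -0.01 and 0.84 for rAAV-YFP and -0.165, -0.43 and 0.07 for rAAV-Lmo3, with rAAV-YFP 3 far above the rest. That of smooth muscle and pericyte markers was -0.04, 0.14 and 0.16 against -0.36, 0.06 and 0.04, with rAAV-Lmo3 1 far below the rest. The part of these cell types in the Slc43a3 difference was not tested.

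The amino acid carriers of this family varied more within the groups than between them. Slc43a1 (LAT3) read 315, 465 and 278 in rAAV-YFP and 491, 230 and 277 in rAAV-Lmo3 eWAT. The 2 highest values came from rAAV-YFP 2 and rAAV-Lmo3 1, and the difference was -0.13 ± 0.31. Slc43a2 (LAT4) read 604, 359 and 500 against 294, 542 and 558, so that the same arrays held its 2 lowest values. Its difference was -0.10 ± 0.30. Slc43a1 and Slc43a3 are near neighbours in the genome, with 1 coding gene between them, and the groups separated for Slc43a3 and overlapped for Slc43a1.

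**Figure D3:**
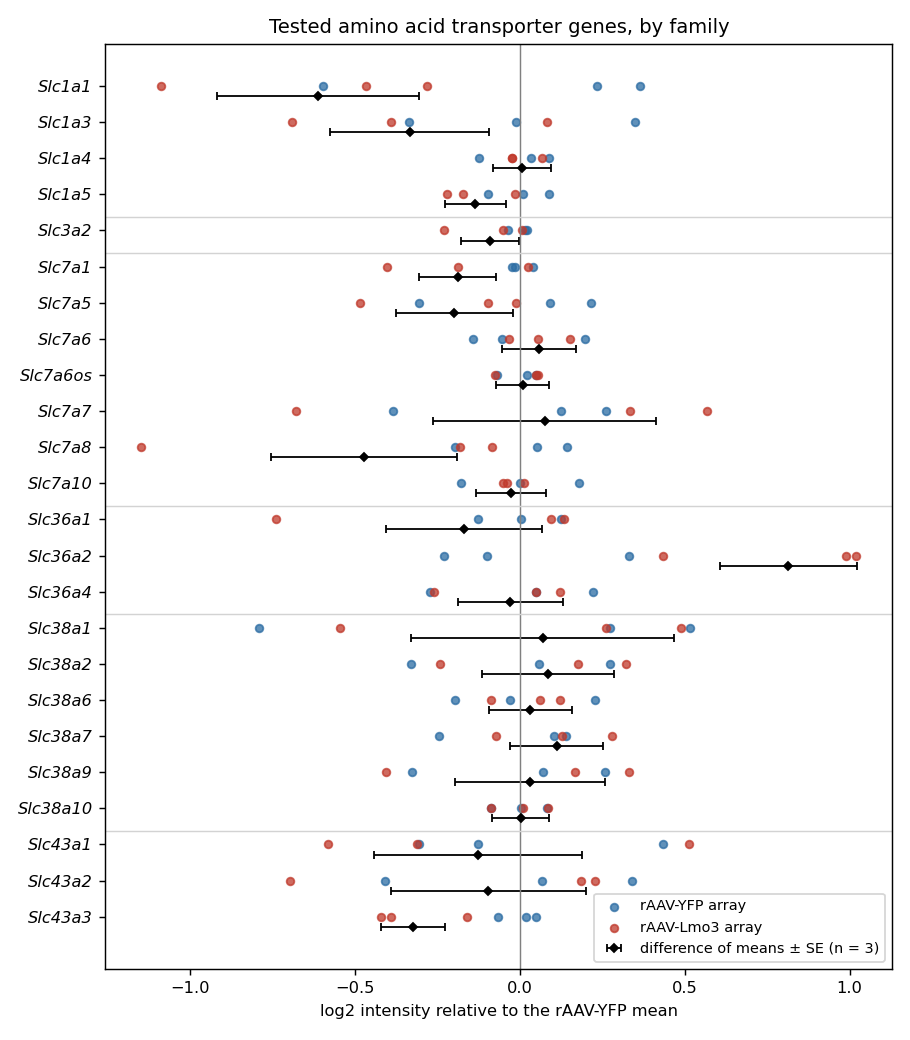
Log2 intensity of the 24 tested members on each array relative to the rAAV-YFP mean (horizontal axis, log2 units; 1 gene per line, ordered by family; control pools in blue, treated pools in red; the black diamond and bar give the group difference ± SE, n = 3). Slc36a2 lies to the right with 0.81 and Slc43a3 to the left with -0.32, both without overlap, whereas Slc1a1, Slc7a7, Slc7a8 and Slc38a1 have wide errors.

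The groups overlapped for the tested heavy chain and for all 5 tested Slc7 light chains, and the intervals of several were wide. The heavy chain Slc3a2 (4F2hc, CD98), partner of several light chains, read 3590, 3733 and 3722 in rAAV-YFP and 3138, 3555 and 3699 in rAAV-Lmo3 eWAT. Its difference of -0.09 ± 0.09 had an interval of -0.30 to 0.12, and most of it came from rAAV-Lmo3 1, without which it was -0.02. The other heavy chain, Slc3a1 (rBAT), was too dim to test with 78, 77 and 82 against 76, 88 and 67.

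Of the light chains, Slc7a5 (LAT1), an exchanger of large neutral amino acids, read 246, 187 and 268 against 165, 229 and 216. Its groups overlapped, with a difference of -0.20 ± 0.18 that ran from -0.35 without rAAV-YFP 2 to -0.05 without rAAV-Lmo3 1. Slc7a8 (LAT2), which exchanges a broader range of neutral amino acids, read 1291, 1212 and 1019 in rAAV-YFP and 527, 1030 and 1101 in rAAV-Lmo3 eWAT. The lowest value, on rAAV-Lmo3 1, stood far from all others, and the difference of -0.47 ± 0.28 was -0.13 without that array. Slc7a7 (y+LAT1), a transporter of cationic amino acids that is prominent in macrophages, read 319, 224 and 351 against 183, 369 and 434. The lowest value of each group came from an array that stood apart, and the difference was 0.07 ± 0.34. Slc7a6 (y+LAT2) read 318, 299 and 379 against 323, 343 and 367, with a difference of 0.06 ± 0.11. Its opposite-strand neighbour Slc7a6os differed by 0.01 ± 0.08. Slc7a11 (xCT), the cystine/glutamate exchanger that feeds glutathione synthesis, was dim with 56, 45 and 52 against 45, 46 and 47.

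Among the cationic transporters, 1 of 3 was bright enough to test. Slc7a1 (CAT1), the widely expressed arginine and lysine carrier, read 331, 329 and 344 in rAAV-YFP and 253, 340 and 294 in rAAV-Lmo3 eWAT. Values of rAAV-Lmo3 1 and 3 lay below all controls and that of rAAV-Lmo3 2 among them. The difference of -0.19 ± 0.12 had an interval of -0.47 to 0.09, and it rested on which arrays were kept. It was -0.08 without rAAV-Lmo3 1 and -0.09 without both arrays that stood apart, and -0.295 without rAAV-Lmo3 2, with an unadjusted p of 0.0339 by limma.

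All 6 tested members of the sodium-coupled Slc38 family lay above 0, at log2 differences of only 0.00 to 0.11. None of these exceeded its SE. Slc38a2 (SNAT2), a system A carrier induced by amino acid deprivation, read 964, 737 and 1119 in rAAV-YFP and 783, 1046 and 1158 in rAAV-Lmo3 eWAT. Its difference was 0.08 ± 0.20. Slc38a1 (SNAT1), a glutamine carrier, read 507, 205 and 429 against 243, 425 and 498. The lowest arrays were rAAV-YFP 2 and rAAV-Lmo3 1, and the spread within the groups gave a difference of 0.07 ± 0.40. Its dimmer probe set differed by -0.32, opposite in sign to the brighter one used here. That probe set had a mean log2 intensity of 5.70, under the limit of 6.83 for testing.

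The lysosomal members of the family overlapped between the groups too. Slc38a9, the arginine-sensing transporter of the lysosome upstream of mTORC1, read 661, 501 and 752 against 475, 706 and 791, a difference of 0.03 ± 0.23. A second probe set of this gene differed by 0.04. Slc38a7 (SNAT7), which releases glutamine from lysosomes, read 469, 368 and 481 against 415, 477 and 529 with a difference of 0.11 ± 0.14. Slc38a6 and Slc38a10 differed by 0.03 ± 0.13 and 0.00 ± 0.09. Slc38a1, Slc38a2 and Slc38a4 are direct neighbours in the genome, and Slc38a4 was too dim to test.

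Both tested acidic amino acid transporters of the Slc1 family lay on the lower side with wide errors. Slc1a1 (EAAT3), which takes up glutamate, aspartate and cysteine, read 107, 190 and 208 in rAAV-YFP and 117, 133 and 76 in rAAV-Lmo3 eWAT. The controls rAAV-YFP 2 and 3 were high, rAAV-YFP 1 lay among the treated pools, and the difference of -0.61 ± 0.31 had an interval of -1.34 to 0.12. Without rAAV-YFP 1 it was -0.91 with an unadjusted p of 0.0109 by limma, and without rAAV-Lmo3 3 it was -0.37. Slc1a1 lay near the limit for testing, with a mean log2 intensity of 7.03 against 6.83. Slc1a3 (GLAST), a glutamate and aspartate carrier, read 917, 1476 and 1150 against 1227, 883 and 718. Here rAAV-YFP 2 and rAAV-Lmo3 1 were the highest of their groups, and the difference was -0.33 ± 0.24. Leaving out single arrays moved it widely. It was -0.54 without rAAV-Lmo3 1, with an unadjusted p of 0.0415 by limma, -0.16 without rAAV-YFP 2 and -0.155 without rAAV-Lmo3 3.

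The neutral exchangers of this family had narrower errors. Slc1a5 (ASCT2), an exchanger of glutamine, read 5982, 6791 and 6433 in rAAV-YFP and 5484, 6328 and 5678 in rAAV-Lmo3 eWAT. The ranges overlapped, with a difference of -0.14 ± 0.09 and an interval of -0.36 to 0.08, and it was -0.05 without both arrays that stood apart. Slc1a4 (ASCT1) read 113 to 131 on all arrays and differed by 0.01 ± 0.09.

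The 19 members left out as dim were Slc1a2, Slc1a6, Slc1a7, Slc3a1, Slc7a2, Slc7a3, Slc7a4, Slc7a9, Slc7a11 to Slc7a15, Slc36a3, Slc38a3, Slc38a4, Slc38a5, Slc38a8 and Slc38a11. Their intensities lay between 18 and 134 on all arrays. Their log2 differences ran from -0.17 for Slc38a3 to 0.14 for Slc7a14, their groups overlapped in every case, and the smallest exact two-sided permutation p among them was 0.3. At such intensities a transcript that is absent and one that is rare cannot be distinguished.

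Many of the transporters were low on the same arrays in both groups. In 13 of the 24 tested members, or 54.2%, the array that stood apart was the lowest of its group both for rAAV-YFP 2 and for rAAV-Lmo3 1, where 25.8% of all genes did so. In 3 members, Slc1a3, Slc43a1 and Slc7a6os, it was the highest in both groups, against 20.7% of all genes. The 13 were Slc36a1, Slc36a2, Slc36a4, Slc38a1, Slc38a2, Slc38a7, Slc38a9, Slc38a10, Slc43a2, Slc7a1, Slc7a5, Slc7a6 and Slc7a7. Slc36a2 thus had its lowest value within each group on the arrays that stood apart, and still separated the groups.

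Macrophage markers were low on these arrays as well. All 18 such markers were bright enough to test, 17 were lowest on both arrays, and 17 lay above 0 with a median difference of 0.13 and 0 past the unadjusted level. Their score, the mean over markers of the log2 value centred per gene, was 0.46, -0.76 and 0.03 for rAAV-YFP and -0.43, 0.23 and 0.47 for rAAV-Lmo3. Progenitor and fibroblast markers were lowest on both in 8 of 11 cases. Adipocyte markers were instead highest on both in 7 of 11 cases, with scores of -0.12, 0.20 and 0.04 against 0.12, -0.06 and -0.18. What part the cell mixture has in the transporter values was not tested.

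**Figure D4:**
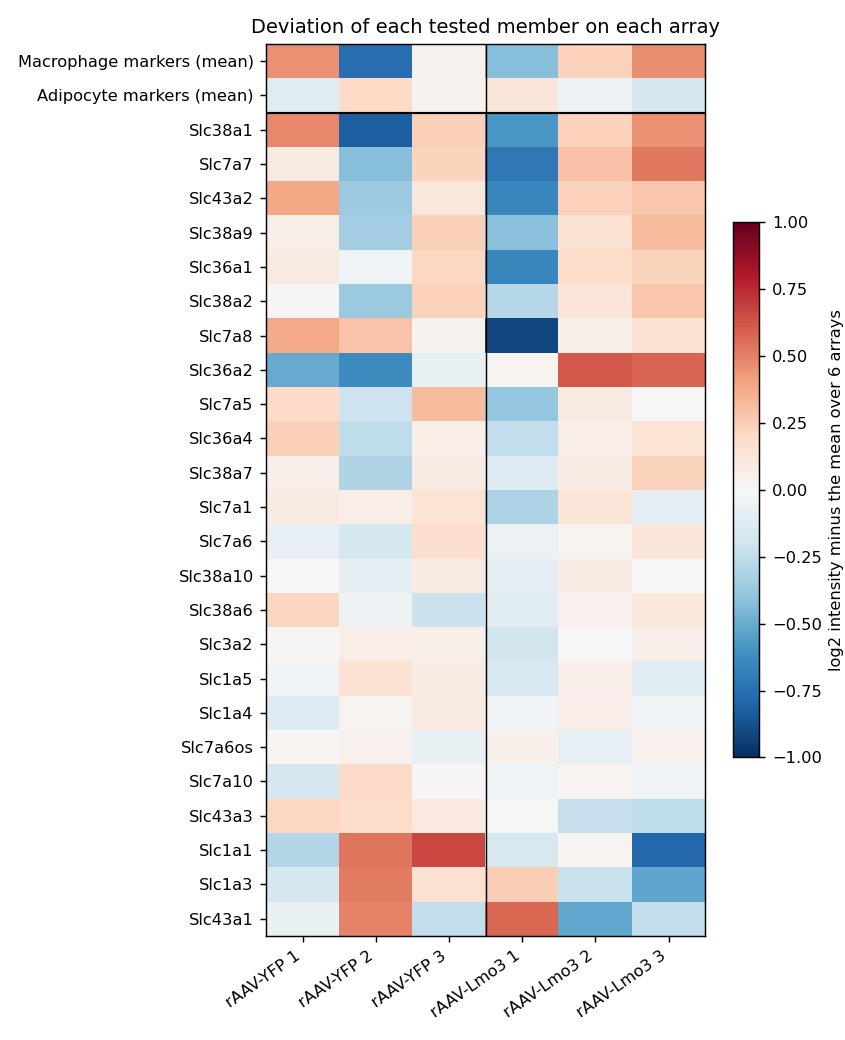
Deviation of the log2 intensity from the mean over 6 arrays (colour, from -1 in blue to 1 in red) for each tested member (rows) on each array (columns, the control arrays left of the line), with the mean of the macrophage and adipocyte markers on top. Rows are ordered by how far rAAV-YFP 2 and rAAV-Lmo3 1 lie below the other arrays of their groups; the macrophage score is lowest on these arrays, at -0.76 and -0.43, and Slc38a1, Slc7a7 and Slc43a2 are low there as well.

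Other genes of amino acid handling were read beside the families. Of 23 other amino acid transporters on the array 9 could be tested, with 6 above 0 and 0 past the unadjusted level. They include Slc6a13, a carrier of GABA and taurine (0.22 ± 0.17), and the lysosomal cystine transporter Ctns (0.18 ± 0.14). Slc6a6, the taurine transporter, read 1940, 749 and 1185 against 953, 1659 and 2365 and was again lowest on both arrays that stood apart.

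Genes that sense amino acids for mTORC1 lay above 0 in 21 of 31 tested cases with a median log2 difference of 0.04. At the unadjusted level 2 were higher and 0 lower, where 2.27% and 2.4% of all genes were. These were the lysosomal scaffold subunit Lamtor2 (0.33 ± 0.12) and folliculin, Flcn (0.22 ± 0.09). Groups did not overlap for 3 genes on the higher side, Lamtor2, Flcn and the scaffold subunit Lamtor1 (0.29 ± 0.14), and for 1 on the lower side, the mTORC1 inhibitor Tsc2 (-0.20 ± 0.09), against 4.53% and 5.95% of all genes. Lamtor2 read 487, 483 and 565 against 736, 583 and 609, highest on rAAV-Lmo3 1, and Flcn read 376, 348 and 363 against 461, 399 and 410.

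Genes of the amino acid starvation response, which ATF4 drives, split into 13 above and 11 below 0, and 0 of the 24 tested passed at the unadjusted level. Groups did not overlap for 1 of them, Nupr1 on the higher side (0.13 ± 0.08), as in 4.53% of all genes. Vldlr (0.39 ± 0.18) and Atf4 itself (0.17 ± 0.10) had the smallest p in this list. Enzymes of glutamine, glutamate and glutathione metabolism lay above 0 in 16 of 21 cases with a median of 0.08. Of these, 1 was higher at the unadjusted level, the 5-oxoprolinase Oplah (0.33 ± 0.12), and 0 were lower, beside 2.27% and 2.4% of all genes. The mitochondrial aspartate aminotransferase Got2 differed by -0.20 ± 0.08 and was the 1 gene of this list with groups that did not overlap, on the lower side, as in 5.95% of all genes. In all 4 of these lists 0 genes passed after adjustment over all genes.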

How the data were processed

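The deposited values were intensity values per probe set, made by the authors with RMA in Affymetrix Expression Console 1.1 (background correction, quantile normalization and median polish), given unlogged as whole numbers. Rounding is coarse for dim genes. Log2 was taken, and for each symbol the brightest probe set by mean over the 6 arrays was kept. Of 35556 probe sets 21789 carried a single symbol, 1621 several and 12146 none. The dimmest 40% of genes, with a mean log2 intensity under 6.83 (114 in intensity), were not tested. The other 11963 genes were fitted with limma 3.58.1 in R 4.3.3 (two-sided, Benjamini-Hochberg, threshold 0.05), after a check on simulated data. An SE or 95% interval is that of the moderated difference, except for the SE of Slc36a2 against its relatives. Dim members were compared by an exact permutation test. Beyond choosing the probe set of a symbol and the brightest member of a family to describe, levels of different probe sets were not compared. Arrays give no counts, so their number limits the precision, and p-values measure the spread between pools.

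Groups and replicate numbers came from the titles. Members and lists were chosen with earlier results of these data known. Values are given array by array for all Slc36 genes, heavy chains, the brightest member of each family, members with an unadjusted p under 0.05, the 6 largest differences in each direction and 11 members known from fat, immune or dividing cells. Pathway lists are given by counts and the 2 members with the smallest p. Outside this rule, Slc43a1, Slc43a2, Slc6a6, P2rx5, Cox8b, Ucp1, Ucp3, Chchd10, Elovl6, Lamtor1, Tsc2, Nupr1 and Adipoq were added with their values known. Gene neighbourhood was read from RefSeq (GRCm38.p6), without coordinates.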

Additional observations from a re-analysis of the deposited data

How the results depend on the processing

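In each alternative 0 genes had an adjusted p under 0.05, with a smallest adjusted p between 0.064 and 1.0, and Slc36a2 kept a difference of 0.70 to 1.00 with an unadjusted p between 0.000533 and 0.0332. The alternatives were other scalings, priors and filters, array weights, the mean over probe sets, the methods' t-test (233 higher, 322 lower, 0 after adjustment), single arrays left out and, chosen after seeing the data, both arrays that stood apart left out. The median of the members lay between -0.119 without rAAV-Lmo3 3 and 0.0345 without rAAV-Lmo3 1. The count of members lower at the unadjusted level ranged from 0 to 2 with single arrays left out, 0 being without rAAV-Lmo3 3. Over all genes, leaving out single arrays gave 122 (without rAAV-YFP 2) to 404 (without rAAV-YFP 3) higher and 140 (without rAAV-Lmo3 3) to 339 (without rAAV-YFP 1) lower. Centring each array on its median moved the split from 271 higher and 287 lower to 317 and 216, that is from 48.6% to 59.5% higher. The depth of an array is not known, and signal near the floor limits the 19 dim members.

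Same-numbered arrays deviated from their group means with correlations of -0.548, -0.398 and 0.263, so the numbers did not pair the pools. With the replicate number as a block (replicate block) the median of the members stayed at -0.0278, Slc36a2 and Slc43a3 had unadjusted p of 0.00728 and 0.0197 by limma, and counts over all genes were 216 higher and 237 lower.

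Of the 24 tested members 15 changed sign under some alternative, and the cause was not tested. Array weights gave Slc36a1 0.0268, Slc36a4 0.00094, Slc43a2 0.0517 and Slc7a10 0.0246. Without both arrays that stood apart, Slc36a1 was 0.0509, Slc38a1 -0.0197, Slc43a2 0.00104 and Slc7a10 0.0766. The mean over probe sets, of which the dimmer lay under the limit for testing, gave Slc38a1 -0.123. A second quantile normalization gave Slc38a10 -0.0153. With single arrays left out, differences ran in Slc1a4 from -0.0557 to 0.0509, Slc36a1 from -0.322 to 0.115, Slc36a4 from -0.165 to 0.0862, Slc38a1 from -0.327 to 0.376, Slc38a10 from -0.0407 to 0.0475, Slc38a2 from -0.0801 to 0.249, Slc38a6 from -0.0672 to 0.146 and Slc38a7 from -0.011 to 0.203. They also ran in Slc38a9 from -0.134 to 0.248, Slc43a1 from -0.447 to 0.1002, Slc43a2 from -0.3001 to 0.206, Slc7a10 from -0.116 to 0.0633, Slc7a6 from -0.0138 to 0.157, Slc7a6os from -0.0262 to 0.0516 and Slc7a7 from -0.172 to 0.451. Slc36a2 stayed above 0, and Slc1a1, Slc1a3, Slc1a5, Slc3a2, Slc43a3, Slc7a1, Slc7a5 and Slc7a8 stayed below 0, in all of these.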
